A study of Equus caballus with 6 samples.

Results

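Genes of prostaglandin synthesis, export, uptake and reception were followed in the 2 tissues of day 8 horse blastocysts: the inner cell mass (ICM), from which the embryo itself arises, and the trophectoderm (TE), the epithelium around it. The rows were chosen by a rule on gene symbols, set with earlier results of these data known. It took symbols starting with PTGS, PTGES, PTGER, PTGFR, PTGIR, PTGDS or PTGIS, and the single symbols HPGD, HPGDS, SLCO2A1, ABCC4, PLA2G4A and CBR1. The rule found 10 of the 12270 rows of the table, and all 10 symbols are also in the RefSeq gene table for the horse. The rows were PLA2G4A, PTGS2, PTGES, PTGES2, PTGES3, PTGIS, PTGER4, PTGFRN, ABCC4 and SLCO2A1. Every row of the table reached 0.40 RPKM (reads divided by gene length in kilobases and by a depth factor of the library) in at least 2 libraries, and the genes of the rule without a row, among them HPGD, PTGFR and PTGDS, were not analysed here.

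The 3 ICM libraries (labelled 15, 22 and 25) and the 3 TE libraries (16, 23 and 24) came from blastocysts produced in vivo by superovulated mares. All blastocysts were exposed to Pronase, a protease mix. The ICM was then purified by immunosurgery and the TE was taken mechanically, so tissue and way of isolation cannot be told apart. RNA was amplified before sequencing, and the labels name no strain, age or mare, and p-values therefore reflect how these 6 libraries vary. The aim was to profile the transcriptomes of both tissues.

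Prostaglandins are made from arachidonic acid. Phospholipase A2 frees it from membranes, the cyclooxygenases (PTGS enzymes) turn it into prostaglandin H, and terminal synthases turn that into prostaglandin E, prostacyclin and others, which leave the cell through carriers and act on receptors in the surface of the same or other cells. The horse embryo is known for secreting prostaglandin E, which relaxes the oviduct and lets the embryo pass into the uterus, and conceptus prostaglandins are linked to its later movement through the uterine lumen. No RNA level measured here says how much of any prostaglandin was made.

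The libraries held 6526212 to 10686659 reads in the genes of the table. Trophectoderm markers (11 of 16 listed had a row) summed to 145, 196 and 180 RPKM in ICM 15, 22 and 25 and 388 to 440 RPKM in TE. Epiblast markers (12 of 14) summed to 121 to 389 RPKM in ICM and 151 to 221 RPKM in TE. Library ICM 25 stood apart. Its median of ratios factor was 0.76, beside 1.01 to 1.12 in the other libraries, so its deposited values were low for the typical gene. It had the lowest epiblast sum, 121 RPKM, beside 380 and 389 in the other ICM libraries. DNMT3B, at 188, 180 and 18.6 RPKM in ICM 15, 22 and 25, made the largest part of the epiblast sum in ICM 15 and 22. Most rows of that list were lowest in ICM 25 among the ICM libraries, but KLF4, GDF3, ESRRB and ZFP42 were not. The hypoblast sum of ICM 25 (13 of 16 markers) was 234 RPKM, beside 488 and 570 in ICM 15 and 22 and 159 to 204 in TE. FN1 made most of that sum, at 389, 471 and 196 RPKM in ICM 15, 22 and 25. Most other hypoblast rows were also lowest in ICM 25 among the ICM libraries, but BMP2 and APOA1 were highest there. SOX2, a defining factor of the epiblast, was at 3.67, 4.13 and 0.44 RPKM in ICM 15, 22 and 25 and listed at 0 in the 3 TE libraries. Leukocyte markers (9 rows, with 20 symbols listed) summed to 3.69, 7.52 and 13.4 RPKM in ICM and 2.11 to 3.24 RPKM in TE, and PTPRC, which defines leukocytes, was not analysed here. Rows of the cumulus and granulosa list (4 of 12), 3 of which are steroid enzymes or carriers that a conceptus also uses, summed to 31.1 to 63.4 RPKM in ICM and 29.7 to 44.9 RPKM in TE. Rows of the endometrial epithelium list (4 of 10) summed to 4.44 to 20.5 RPKM in ICM and 4.10 to 10.4 RPKM in TE. The highest sums of these 3 lists were in ICM 25, and their part in the results was not tested.

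The rows of the arm that leads to prostaglandin E all had lower mean levels in ICM than in TE, and PTGS2 was the row that passed the test. PTGS2, PTGES and PLA2G4A had mean levels 4.25, 2.42 and 2.13 times higher in TE. PTGIS, the prostacyclin synthase, and ABCC4, an exporter of prostaglandins, had means 4.29 and 2.56 times those of TE in ICM, with ICM 15 and 22 high and ICM 25 not. Of the 10 rows, 8 had at least 1 RPKM in at least 3 libraries and were tested with limma on log2(RPKM + 1), with p-values adjusted over all 9436 genes tested. The call at adjusted p below 0.05 was reached by 1 of the 8, lower in ICM, where 0.933% of all genes tested were called lower in ICM and 0.933% higher (88 and 88 genes; 82 lower and 126 higher after median of ratios rescaling, and 77 and 129 after quantile normalization). In 6 of the 8 the values of the tissues did not overlap, all lower in ICM, where 17.8% of all genes tested were separated in this direction and 6.81% in the other. After median of ratios rescaling, a check added after the data were seen, 3 rows stayed separate with ICM lower (PTGS2, PLA2G4A and PTGES2) and PTGIS with ICM higher, beside 13.8% and 11.4% of all genes, so the separation of PTGES, PTGES3 and PTGFRN described below holds for the deposited scaling only. The median log2 difference (ICM minus TE) of the 8 was -0.49, and that of all genes tested was -0.15. Since the 8 rows had to pass a filter on level, these counts are a description.

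**Figure D1:**
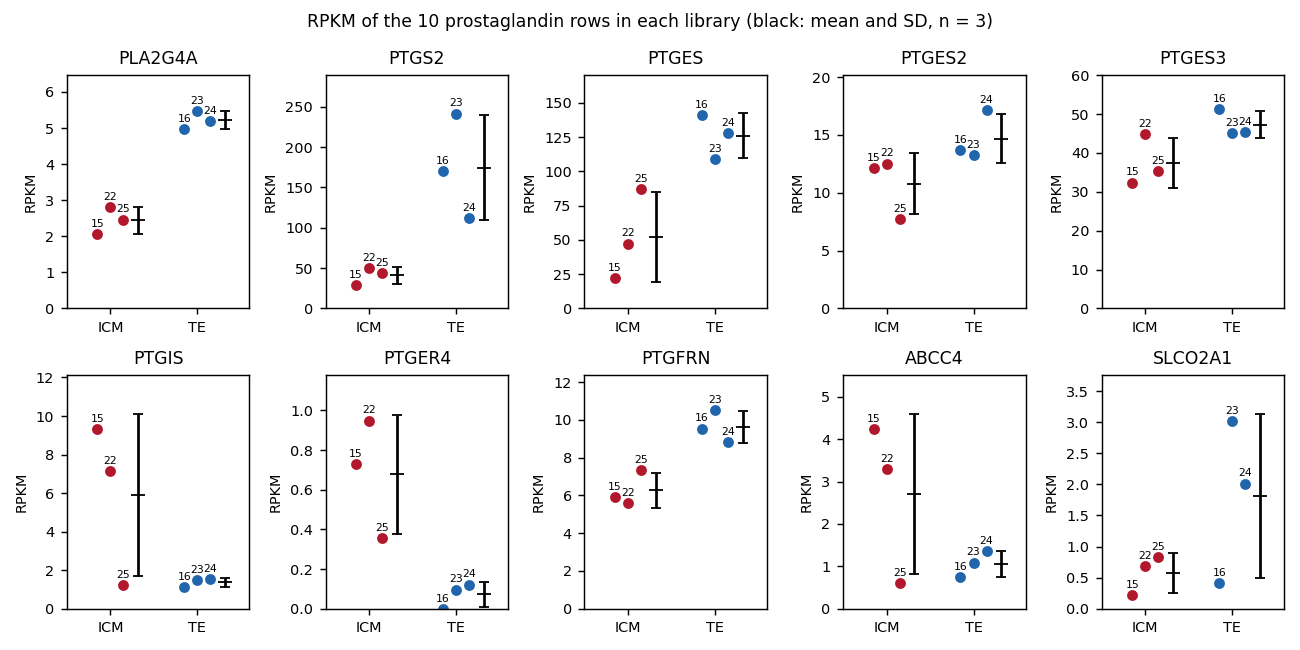
RPKM of each of the 10 rows in the 3 ICM libraries (red) and the 3 TE libraries (blue), with library numbers beside the points and the mean with its SD in black; every axis is linear and starts at 0. PTGS2 lies at 28.9 to 50.4 RPKM in ICM and 112 to 242 in TE, and ICM 25 lies beside the TE libraries for PTGIS and ABCC4.

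PLA2G4A encodes the cytosolic phospholipase A2 that releases arachidonic acid. It was at 2.07, 2.82 and 2.46 RPKM in ICM 15, 22 and 25, against 4.98, 5.47 and 5.20 RPKM in TE 16, 23 and 24. Both groups were tight and did not overlap. The log2 difference was -0.85 (SE 0.23, 95% interval -1.37 to -0.34), and it missed the threshold over all genes (limma adjusted p = 0.103).

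PTGS2 is the inducible cyclooxygenase, the step that commits arachidonic acid to prostaglandins. It was at 28.9, 50.4 and 43.8 RPKM in ICM 15, 22 and 25, against 170, 242 and 112 RPKM in TE 16, 23 and 24. Every ICM library was below every TE library. In the deposited scaling only, the lowest TE library had more than double the level of the highest ICM library. The means were 41.0 ± 11.0 RPKM in ICM and 175 ± 65.0 RPKM in TE (SD, n = 3 each). The log2 difference was -2.03 (SE 0.34, 95% interval -2.80 to -1.26, limma adjusted p = 0.029). Ordered by RPKM among the 12270 rows, PTGS2 ranked 1200, 713 and 548 in ICM 15, 22 and 25, and 186, 126 and 323 in TE 16, 23 and 24. Among the genes tested, 17 had a more negative log2 difference, 15 of them called. Within TE the gene varied more than most: its SD on the log2 scale was 0.40 in ICM and 0.55 in TE, where the median gene had 0.44 in ICM and 0.19 in TE, and 97.0% of the genes tested varied less in TE. The call ended when any 1 library other than ICM 25 was left out: without ICM 15 or 22 the adjusted p was 0.090 or 0.056, and without TE 16, 23 or 24 it was 0.161, 0.166 or 0.106. Few genes of any kind were called then: 0, 1 and 1 of the 9436 tested without TE 16, 23 and 24. Without ICM 15 and 22, 18 and 76 were called, beside 176 with all libraries. These losses therefore do not set PTGS2 apart from other genes.

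In the deposited coordinates, whose genome build is unnamed in the sources at hand, PTGS2 lies on chromosome 5 (23249172 to 23256141) and PLA2G4A beside it on the same chromosome (23421610 to 23537261), 165468 bases away. The table has 0 rows, and the current RefSeq annotation of the horse 0 protein-coding genes, that start between them. Both were lower in ICM. The ratio of PTGS2 to PLA2G4A RPKM within a library was 14.0, 17.9 and 17.8 in ICM 15, 22 and 25, against 34.3, 44.2 and 21.5 in TE 16, 23 and 24, so PTGS2 differed more between the tissues than its neighbour did.

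The other cyclooxygenase, PTGS1, has no row under that symbol, but the table holds a row named COX-1, which RefSeq lists as a synonym of PTGS1. It was looked up after values of the other rows had been seen. This row was at 0.09, 0.52 and 0.83 RPKM in ICM 15, 22 and 25 and at 0.40, 0.20 and 0.64 RPKM in TE 16, 23 and 24, from 4 to 36 reads a library. The groups overlapped, and the row stayed below the filter. Per length, PTGS2 was the more abundant cyclooxygenase row in all 6 libraries.

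Prostaglandin E synthases act next. PTGES encodes the microsomal enzyme that works in step with PTGS2, and it was at 22.2, 47.3 and 86.9 RPKM in ICM 15, 22 and 25, against 141, 109 and 128 RPKM in TE 16, 23 and 24. As deposited the groups did not overlap, but the ICM libraries spread widely and ICM 25 came near the TE values. The means were 52.1 ± 32.6 RPKM in ICM and 126 ± 16.2 RPKM in TE (SD, n = 3 each), and the log2 difference of -1.45 (SE 0.43) missed the threshold (limma adjusted p = 0.141). Without ICM 25 it was -1.92 (SE 0.30, adjusted p = 0.0091), past the threshold, in a comparison that called 5.62% of all genes lower in ICM and 5.89% higher. Without ICM 15 it was -0.96 (adjusted p = 0.236).

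PTGES2, a second enzyme of this kind, was at 12.2, 12.5 and 7.72 RPKM in ICM 15, 22 and 25, against 13.7, 13.2 and 17.1 RPKM in TE 16, 23 and 24. PTGES3, a cochaperone of the HSP90 chaperones that also has synthase activity, was at 32.4, 44.8 and 35.4 RPKM in ICM 15, 22 and 25, against 51.3, 45.2 and 45.3 RPKM in TE 16, 23 and 24. Both pairs of groups were separated by narrow gaps. The log2 differences were -0.43 for PTGES2 (95% interval -1.03 to 0.17, limma adjusted p = 0.459) and -0.34 for PTGES3 (95% interval -0.86 to 0.19, adjusted p = 0.516), and neither was called without ICM 25. How reads shared with gene copies were counted is not stated.

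The makeup of the synthase group therefore differed between libraries. PTGES held 33.2%, 45.2% and 66.9% of the summed RPKM of PTGES, PTGES2 and PTGES3 in ICM 15, 22 and 25, and 68.5%, 65.1% and 67.2% in TE 16, 23 and 24. ICM 15 and 22 were below all TE libraries, and ICM 25 was among them. The summed level of the 3 rows was 66.7, 105 and 130 RPKM in ICM 15, 22 and 25, against 206, 167 and 191 RPKM in TE 16, 23 and 24, without overlap as deposited. The ratio of PTGS2 to PTGES was 1.31, 1.07 and 0.50 in ICM and 1.21, 2.22 and 0.87 in TE, in the same library order, and here the tissues overlapped. The 2 rows were thus of similar level per length in most libraries of both tissues.

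PTGIS makes prostacyclin from the same precursor, and so stands beside PTGES at the branch of the pathway. It was at 9.34, 7.15 and 1.21 RPKM in ICM 15, 22 and 25, against 1.12, 1.49 and 1.52 RPKM in TE 16, 23 and 24. ICM 15 and 22 were far above all TE libraries, and as deposited ICM 25 lay within them. After median of ratios rescaling all ICM libraries were above all TE libraries. The log2 difference was 1.27 (SE 0.51, 95% interval 0.11 to 2.43) and was not called (limma adjusted p = 0.261). The SD within ICM, 1.20 on the log2 scale, exceeded that of 97.6% of the genes tested. Without ICM 25 the log2 difference was 1.95 (SE 0.22, adjusted p = 0.0038), past the threshold, and without ICM 15 it was 0.84 (adjusted p = 0.464).

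The ratio of PTGES to PTGIS RPKM was 2.38, 6.62 and 71.8 in ICM 15, 22 and 25, against 126, 73.2 and 84.3 in TE 16, 23 and 24. ICM 15 and 22 were both more than 10 times below the lowest TE library, while ICM 25 lay just below it. ICM 25, in which both ratios were near those of TE, is also the ICM library with the low epiblast and hypoblast sums given above. The hypoblast sum was mostly FN1, and the trophectoderm sum of ICM 25 lay between those of ICM 15 and 22. In these pieces of tissue, fewer cells of a type and less RNA per cell cannot be told apart, and the part of the cell mixture in these differences was not tested.

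**Figure D2:**
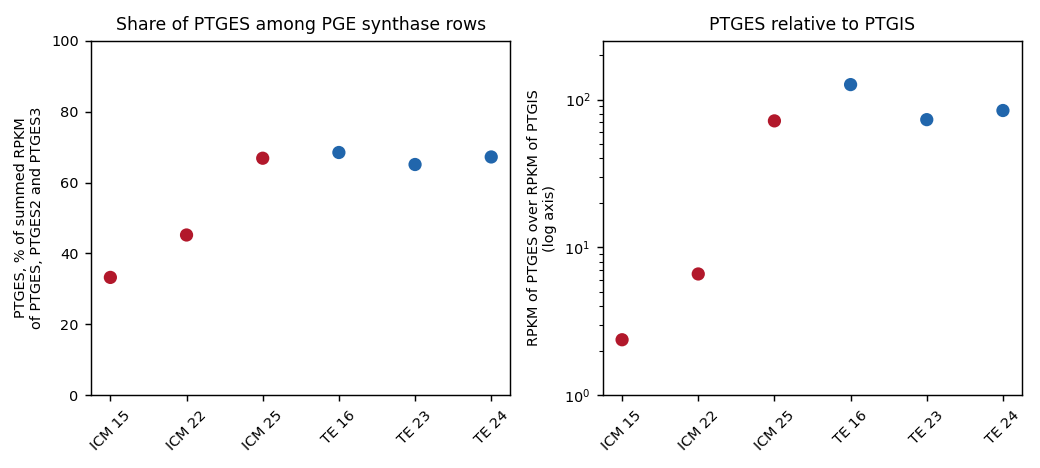
Left, the share of PTGES in the summed RPKM of PTGES, PTGES2 and PTGES3 (percent, linear axis from 0); right, the RPKM of PTGES over that of PTGIS (log axis); 1 point per library, ICM red and TE blue. ICM 15 and 22 are low in both panels, at 33.2% and 45.2% and at ratios of 2.38 and 6.62, and ICM 25 is level with the TE libraries.

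The one prostaglandin receptor with a row was PTGER4, a receptor for prostaglandin E that raises cyclic AMP. It was at 0.73, 0.95 and 0.36 RPKM in ICM 15, 22 and 25 (29, 46 and 14 reads), against 0, 0.10 and 0.12 RPKM in TE 16, 23 and 24 (0, 3 and 5 reads). Every ICM library was above every TE library, at levels below the filter of the test. The 0 reads in TE 16 allow up to 0.071 RPKM, the worth of 3 reads. Over the groups, 89 reads in ICM and 8 in TE gave a ratio of 10.02 after scaling, with an exact 95% interval of 4.87 to 23.9 that covers counting error only and treats each tissue as 1 pool of reads. Tested without a filter, the log2 difference on the log2(RPKM + 1) scale, which understates low genes, was 0.63 (SE 0.20, limma adjusted p = 0.163). Separation with ICM higher occurred in 9.54% of all rows of the table.

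PTGFRN encodes a membrane protein that reduces the binding of prostaglandin F to its receptor. It was at 5.90, 5.61 and 7.33 RPKM in ICM 15, 22 and 25, against 9.54, 10.5 and 8.82 RPKM in TE 16, 23 and 24. The groups did not overlap, and the difference was small: -0.55 on the log2 scale (SE 0.23, limma adjusted p = 0.275), and -0.65 without ICM 25 (adjusted p = 0.059). Neither passed the threshold.

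Neither of the 2 carriers was called with all libraries. ABCC4, which exports prostaglandins and cyclic nucleotides, was at 4.24, 3.30 and 0.60 RPKM in ICM 15, 22 and 25, against 0.74, 1.09 and 1.35 RPKM in TE 16, 23 and 24. As with PTGIS, ICM 15 and 22 were above all TE libraries, but ICM 25 was below all of them in the deposited scaling. The log2 difference was 0.69 (SE 0.42, 95% interval -0.26 to 1.65, limma adjusted p = 0.455), and 1.21 (SE 0.24, adjusted p = 0.018) without ICM 25, where it was called. It was 0.36 (adjusted p = 0.712) without ICM 15. SLCO2A1, which takes prostaglandins up into cells for breakdown, was at 0.22, 0.68 and 0.83 RPKM in ICM 15, 22 and 25, against 0.41, 3.01 and 2.01 RPKM in TE 16, 23 and 24. TE 23 and 24 were above all ICM libraries, but TE 16 was among them. It stayed below the filter, and without a filter its log2 difference was -0.73 (SE 0.38, adjusted p = 0.346).

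Without ICM 25, then, 5 of the 8 rows tested were called: PTGS2, PTGES and PLA2G4A (log2 difference -0.86, limma adjusted p = 0.037) lower in ICM, and PTGIS and ABCC4 higher. In that comparison 11.5% of all genes tested were called. PTGS2 was there at -2.09 (SE 0.35, adjusted p = 0.012). With any other 1 library left out, 0 of the 8 rows were called, and fewer genes of any kind than with all libraries. In the authors' deposited table, made with DESeq on all 6 libraries, 7 of the 10 rows had an adjusted p below 0.05, where 16.6% of all rows did. The authors' deposited table gives adjusted p of 2.6e-10 for PTGS2, 1.5e-10 for PTGIS, 3.0e-05 for PTGES, 0.00029 for ABCC4, 0.00031 for PTGER4, 0.022 for PLA2G4A and 0.049 for SLCO2A1. PTGIS and ABCC4, which overlapped between the tissues as deposited, thus passed there with all libraries and did not pass with limma.

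**Figure D3:**
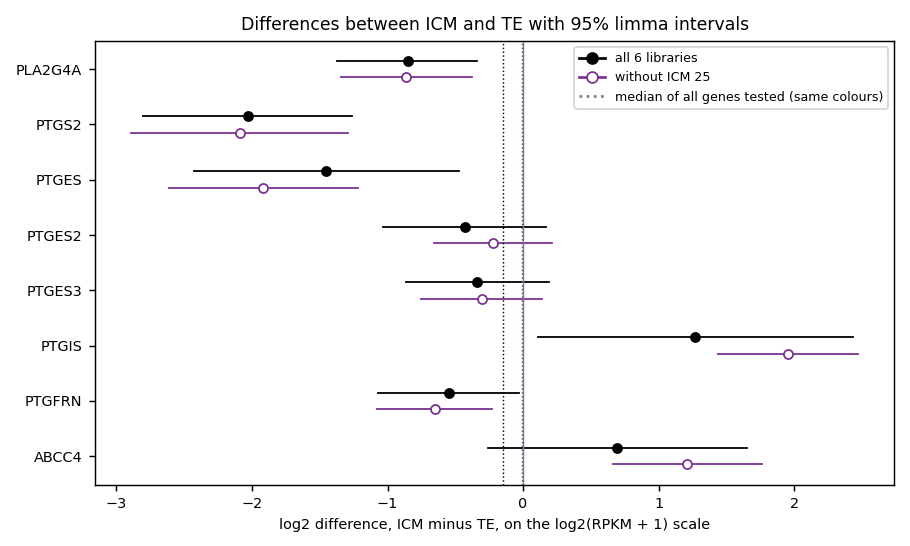
Log2 difference (ICM minus TE, log2(RPKM + 1) scale) of the 8 rows tested, with 95% limma intervals, for all 6 libraries (black, filled) and without ICM 25 (purple, open); dotted lines mark the median of all genes tested, -0.15 and -0.01. PTGS2 and PLA2G4A hardly moved when ICM 25 was left out, while PTGES, PTGIS and ABCC4 moved away from 0 and their intervals narrowed.

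Over the 6 libraries, the genes whose log2 level followed PTGS2 most closely were LOC100629233 (Pearson r = 0.997), EHHADH (0.996), ZNF277 (0.993), TMEM216 (0.993), LOC100629418 (0.991) and ASH2L (0.990). With 6 points in 2 groups, 114 of 9435 genes reached 0.95, and this is a description only. EHHADH was at 2.41, 5.93 and 4.76 RPKM in ICM 15, 22 and 25, against 20.3, 26.2 and 13.0 RPKM in TE 16, 23 and 24, with the order of PTGS2 in all libraries. LOC100629418 was at 6.37, 16.2 and 9.47 RPKM in ICM and 47.4, 69.0 and 29.0 RPKM in TE, in the same library order. EHHADH, TMEM216 and LOC100629418 were called lower in ICM (limma adjusted p = 0.036, 0.044 and 0.044), as were 0.933% of all genes tested. All 6 genes were picked for following PTGS2, itself lower in ICM, so these calls follow in part from the choice. These calls ended when a single TE library or ICM 15 was left out, comparisons that called few genes of any kind, as given for PTGS2. The calls of EHHADH and TMEM216 also ended without ICM 22 (limma adjusted p = 0.056 and 0.062). With voom on whole reads the adjusted p was 0.069 for EHHADH, 0.124 for TMEM216 and 0.053 for LOC100629418. TMEM216 also missed the threshold with median of ratios rescaling (0.054), and EHHADH and LOC100629418 with quantile normalization (0.0505 and 0.056). Without a filter it was 0.058 for TMEM216 and 0.0501 for LOC100629418, and with a pseudocount of 0.1 it was 0.053 for TMEM216 and 0.052 for LOC100629418. Of the prostaglandin rows, PLA2G4A came closest to PTGS2 (r = 0.963), followed by PTGFRN (0.923), while PTGIS had r = -0.695.

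Other genes of the pathway were counted in 5 lists, each without the 10 rows. Of 24 genes tested for arachidonate release and its return to membranes (41 listed), 1 was called higher in ICM and 1 lower, with a median log2 difference of -0.13, beside 1.87% called and -0.15 over all genes. Both calls were ligases that activate long fatty acids, in opposite directions. ACSL4, which prefers arachidonic acid, was at 2.89, 3.36 and 1.44 RPKM in ICM 15, 22 and 25, against 0.01, 0.02 and 0.10 RPKM in TE 16, 23 and 24 (log2 difference 1.73, limma adjusted p = 0.026). ACSL6 was at 3.67, 10.2 and 4.17 RPKM in ICM, against 20.6, 29.6 and 24.9 RPKM in TE, in the same library order (log2 difference -2.00, adjusted p = 0.035). Neither gene overlapped between the tissues. ACSL4, however, passed the filter only through its ICM libraries, so its separation follows from the filter.

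Of 7 other prostanoid enzymes, receptors and carriers tested (27 listed), 0 were called higher in ICM and 1 lower, with a median of -0.28. The call was ABCC5, an exporter of cyclic nucleotides and organic anions related to ABCC4, at 6.60, 8.82 and 9.29 RPKM in ICM 15, 22 and 25, against 18.6, 20.5 and 20.3 RPKM in TE 16, 23 and 24 (log2 difference -1.18, limma adjusted p = 0.046). It lay opposite to ABCC4 and was lost under several settings, among them median of ratios rescaling (adjusted p = 0.070). Of 6 lipoxygenase and leukotriene genes tested (20 listed), 0 were called higher in ICM and 1 lower, with a median of 0.05. The call was ALOX12B, a lipoxygenase known from the skin barrier (log2 difference -1.44, limma adjusted p = 0.045). It was at 0.02, 0.53 and 0.67 RPKM in ICM, against 2.95, 3.40 and 1.99 RPKM in TE, in the same library order. ALOX12B passed the filter only through its TE libraries, so its separation follows from the filter. The call was lost with a pseudocount of 0.1 (adjusted p = 0.102) and without a filter (0.053). It was also lost with median of ratios rescaling (0.065), quantile normalization (0.052) and voom on whole reads (0.092).

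Of 19 genes of cyclic AMP and peroxisome proliferator receptor signalling tested (39 listed), 0 were called in either direction by limma at adjusted p below 0.05, 4 had an unadjusted p below 0.05, and the median was -0.07. The 2 with the smallest p were CRTC3, a coactivator of CREB (2.24, 2.46 and 3.07 RPKM in ICM 15, 22 and 25, against 6.22, 6.61 and 6.21 RPKM in TE 16, 23 and 24, adjusted p = 0.064), and the receptor partner RXRA (0.59, 0.78 and 1.04 RPKM in ICM, against 1.75, 1.70 and 1.66 RPKM in TE, adjusted p = 0.224). Of 28 regulators of PTGS2 transcription and mRNA tested (42 listed), 0 were called higher in ICM and 1 lower, with a median of -0.15. The call was FOS, a subunit of the AP-1 factor, at 4.55, 17.9 and 8.07 RPKM in ICM, against 42.7, 34.6 and 56.0 RPKM in TE (log2 difference -2.18, adjusted p = 0.045). That call was lost with a pseudocount of 0.1 (adjusted p = 0.054), without a filter (0.053) and with a filter of 5 RPKM (0.0504). The order of the TE libraries differed between FOS, highest in TE 24, and PTGS2, highest in TE 23, and a link between the genes was not tested. The calls of all 5 genes ended when a single TE library or ICM 15 was left out, and those of ACSL4, ABCC5 and ALOX12B also ended without ICM 22. As given for PTGS2, few genes of any kind were called without a TE library or ICM 15.

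**Figure D4:**
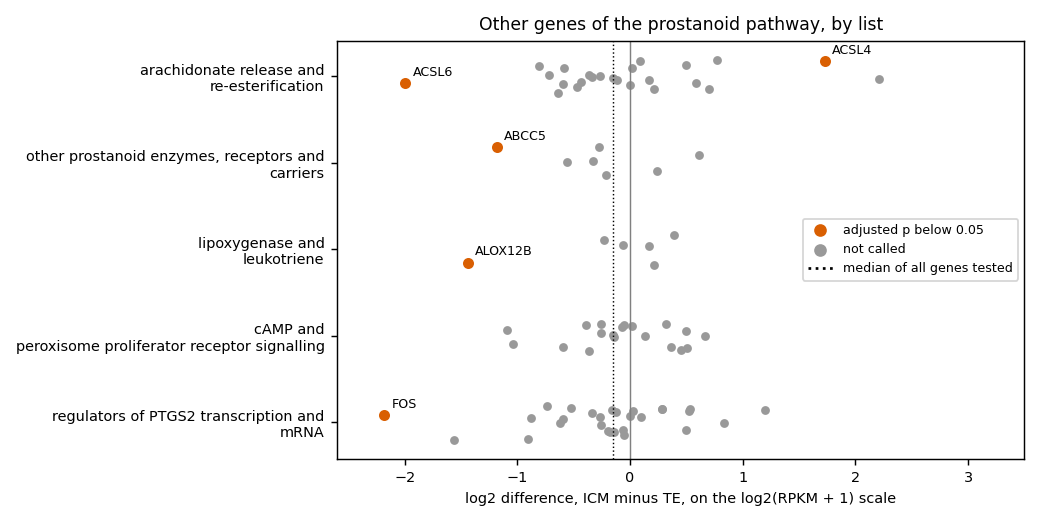
Log2 difference (ICM minus TE, log2(RPKM + 1) scale) of each tested gene of the 5 lists, 1 point per gene, with called genes in orange and named; vertical position within a list is arbitrary, and the dotted line is the median of all genes tested, -0.15. Most genes of each list lie near that line, and the 5 calls are ACSL4 above 0 and ACSL6, ABCC5, ALOX12B and FOS below 0.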

How the data were processed

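RNA from 3 ICM and 3 TE libraries had been sequenced, and groups were taken from the sample titles. The authors deposited 1 table of RPKM per gene, per the file headers, with the mean scaled signal, fold (ratio), its log2 value and DESeq p-value and adjusted p-value. FastQC and DESeq are named in the submitters' processing notes; the sources used here give no aligner, counter or genome build. RPKM times the deposited mean signal over mean RPKM, and times a size factor of the library, gave whole reads within 0.01 for 100% of values up to 1000 reads.

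Genes that reached 1 RPKM in 3 or more libraries were fitted with limma 3.58.1 (R 4.3.3, eBayes with trend) on log2(RPKM + 1), a scale that understates changes of low genes, with Benjamini-Hochberg adjustment and a threshold of 0.05. Alternatives were no filter, a 5 RPKM filter, a 0.1 RPKM pseudocount, 2 rescalings (median of ratios and quantile), library weights, voom on the reads, and each library left out with the genes kept. Amplified reads without molecular identifiers understate counting error. All 10 rows of the rule are given, and of the 5 pathway lists every called gene, or else the 2 with the smallest p, and the 6 genes most correlated with PTGS2. Members and lists were chosen with earlier results of these data known. Strand was not stated.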

Additional observations from a re-analysis of the deposited data

How the results depend on the processing

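PTGS2 was lower in ICM under all 14 settings, by -2.31 to -1.76 on the log2 scale, and passed the threshold in 9 of them. The 5 others each left out 1 library other than ICM 25, and the log2 difference without 1 library ran from -2.31 to -1.76. The number of prostaglandin rows called, 1, was 5 with library weights (PTGS2, PTGES, PLA2G4A, PTGIS and ABCC4). With 1 library left out it was 5 without ICM 25 and 0 without any of the others. The number of genes called, 176, was 112 with a pseudocount of 0.1, 114 without a filter, 81 with a filter of 5 RPKM, 760 with library weights, and between 0 and 1086 with 1 library left out. It was 0, 1 and 1 without TE 16, 23 and 24, 18 and 76 without ICM 15 and 22, and 1086 without ICM 25. The 7 other prostaglandin rows kept their direction under every setting run. Of their 88 alternative values 8 passed the threshold, all with library weights or without ICM 25. The library weight of ICM 25 was 0.17, beside 0.66 to 2.81 in the other libraries. The fit with library weights and the fit without ICM 25 are therefore not separate checks. The 13 genes outside the rows that the naming rule chose also kept their direction; of the 101 alternative values of the 8 called, 59 missed the threshold, and 6 of the 64 of the others passed it. The 6 genes picked later kept theirs, and 8 of their 77 alternative values passed, all with library weights or without ICM 25. The filter of 5 RPKM dropped ABCC4, PLA2G4A and PTGIS. The median log2 difference of all genes, -0.15, was -0.03 with median of ratios rescaling, quantile normalization or library weights, and PTGS2 was then at -1.88 with the first and -1.91 with the second. No paired analysis was possible because the tissues share no replicate number. The reads of PTGER4, SLCO2A1 and COX-1 limit what can be said of them.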

Other observations

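Further genes near the pathway were picked after their values were seen, and none of them was called with all libraries. AKR1B1, an aldo-keto reductase with prostaglandin F synthase activity in human and cattle, was at 282, 315 and 74.0 RPKM in ICM 15, 22 and 25, against 125, 111 and 133 RPKM in TE 16, 23 and 24 (log2 difference 0.61, limma adjusted p = 0.590). As with PTGIS and ABCC4, ICM 15 and 22 were above all TE libraries and ICM 25 was not. PTGR1, which inactivates prostaglandins and leukotrienes, overlapped between the tissues, at 24.8, 14.5 and 6.87 RPKM in ICM and 25.1, 16.9 and 20.6 RPKM in TE (adjusted p = 0.537). PPARD, a nuclear receptor that prostacyclin can activate, was at 4.29, 9.69 and 17.8 RPKM in ICM 15, 22 and 25, against 15.2, 22.3 and 26.1 RPKM in TE 16, 23 and 24 (log2 difference -1.09, adjusted p = 0.259). ICM 25 was the ICM library nearest to TE for PPARD, but the farthest from TE for PTGR1 and for ANXA1, given next. ANXA1, an inhibitor of phospholipase A2, was at 6.27, 3.03 and 22.1 RPKM in ICM, against 1.45, 0.64 and 0.71 RPKM in TE, without overlap (log2 difference 2.21, adjusted p = 0.089). The desaturases FADS1 and FADS2, which act in the synthesis of arachidonic acid, averaged 53.3 ± 12.6 and 43.3 ± 12.6 RPKM in ICM, against 79.3 ± 6.99 and 70.7 ± 12.8 RPKM in TE (SD, n = 3 each, adjusted p = 0.287 and 0.250). Without ICM 25, AKR1B1 (log2 difference 1.27, adjusted p = 0.0067) and ANXA1 (1.51, 0.023) were called higher in ICM, and PPARD (-1.53, 0.026), FADS1 (-0.75, 0.043) and FADS2 (-0.92, 0.037) lower, in a comparison that called 11.5% of all genes.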
